A study of Mus musculus with 6 samples.

Results

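Plasma cells secrete antibody, and in the lacrimal gland much of that antibody is IgA that epithelial cells carry into tears. The genes described here are 8 genes of that route, chosen by name as the rows of Jchain, Pigr, Sdc1, Prdm1, Mzb1, Irf4, Fkbp11 and Derl3 in a table of 55401 genes. All 8 were found in the table and all 8 were expressed highly enough to be among the 18537 genes tested. The table held 6 bulk RNA-seq libraries of mouse lacrimal gland, 3 from ICR mice, an outbred stock labelled control, and 3 from NOD/Ltj mice, labelled model. NOD mice are an inbred strain known for lymphocyte infiltration of the lacrimal gland, and the series concerns NF-κB signalling in primary Sjögren's syndrome. No treatment, transgene or deletion is labelled in either group. No source used here gives age or sex, and the groups differ in their whole genetic background, so strain, age and state of the gland cannot be told apart. The labels number the libraries 1 to 3 within each strain and name no animals. A p-value here therefore sets a difference against the spread among these samples, which may be technical.

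Plasma cells in glands assemble IgA into dimers with the joining chain, the product of Jchain. The polymeric immunoglobulin receptor, the product of Pigr, binds such dimers at the basal face of epithelial cells, carries them through the cell and releases them at the lumen with part of itself attached. Irf4 and Prdm1 encode transcription factors that drive a B cell to become a plasma cell, and Sdc1 encodes syndecan-1 (CD138), a surface proteoglycan used to recognise plasma cells and also made by epithelia. Mzb1, Fkbp11 and Derl3 encode proteins of the endoplasmic reticulum (ER), where antibody is folded, and acinar cells of a gland also use such proteins for their own secretion. In a bulk library, fewer cells of a type and less RNA per cell cannot be told apart.

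The 2 ends of the route are the joining chain and its epithelial receptor. Among the 7 members with a promoter window read, only theirs hold the core site of the interferon regulatory factors, the family of Irf4. Both windows are shown. They run from 150 bases before the gene start to 30 after it, 180 bases in all, from RefSeq on GRCm38.p6, written 5′ to 3′ on the gene's strand. Pigr lies at chr1:130826534-130826713 on the plus strand and Jchain at chr5:88527868-88528047 on the minus strand. Capitals mark the core, AANNGAAA on either strand (here on the reverse strand in both), and in Pigr also the E-box CACGTG.
Pigr: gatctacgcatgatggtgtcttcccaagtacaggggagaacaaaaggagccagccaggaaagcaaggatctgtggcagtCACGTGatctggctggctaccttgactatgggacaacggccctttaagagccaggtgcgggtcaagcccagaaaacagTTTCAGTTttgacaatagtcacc
Jchain: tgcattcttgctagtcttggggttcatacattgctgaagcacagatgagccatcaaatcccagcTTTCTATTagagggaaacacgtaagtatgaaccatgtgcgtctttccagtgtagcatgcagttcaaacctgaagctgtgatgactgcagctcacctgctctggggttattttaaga
The core was present in 14.5% of 32851 mouse promoter windows of this length, and in 2 of the 8 member windows. These windows came from 7 members, Fkbp11 with 2 windows. No window of Mzb1 was read, so these counts say nothing about its promoter. The longer interferon-stimulated response element, which contains the core, was present in 1.90% of all windows and in no member window. The E-box was present in 5.09% of all windows and in the windows of Pigr and Fkbp11. The letters CCACG, which can overlap an E-box, were present in 23.4% of all windows and in those of Prdm1, Irf4 and Fkbp11. Neither the unfolded protein response element TGACGTGG, whose reverse strand contains CCACG, nor the kappaB consensus was present in a member window, against 0.502% and 2.72% of all windows. A match describes these letters only.

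The libraries summed to between 58426580 and 76554340 estimated counts, and levels are CPM, counts relative to library sizes scaled by edgeR's TMM factors, which ran from 0.809 to 1.26. A count of 0 allows up to 3 fragments, here taken as about 12 counts or 0.149 to 0.222 CPM by library, for counting error only. Genes of the lacrimal gland were present in every library, with Lcn11 at 2482 to 7688 CPM and Aqp5 at 71.5 to 108 CPM. Of 8 acinar markers 7 were lower in NOD/Ltj by the fitted value (median log2 fold change -0.38), 4 with all NOD/Ltj libraries below all ICR libraries, and 1 was called. That was Prol1, at 20.7 to 147 CPM in ICR and 2.52 to 2.59 CPM in NOD/Ltj (adjusted p = 0.0160; not called without ICR 3, NOD 1, NOD 2 or NOD 3, 0.0551 to 0.113, or in limma-voom, 0.0607). Salivary gland genes summed to 11782 CPM in ICR 3 and 2064 CPM in NOD 2, against 66.9 to 1179 CPM in the other libraries, and the salivary genes Smgc and Dcpp3 were listed at 0 throughout. Skeletal muscle genes summed to 107 CPM in ICR 3 and to at most 4.62 CPM elsewhere. In ICR 1, adipocyte genes (72.5 CPM), ductal and simple epithelial genes (889 CPM) and macrophage and dendritic cell genes (151 CPM) summed higher than in any other library. Their part in the members' values was not tested.

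None of the 8 genes differed between the strains beyond the spread between libraries. Calls and adjusted p-values are from edgeR's quasi-likelihood test, adjusted over all genes tested, with a threshold of 0.05. Of all genes tested, 2.24% were called, 1.88% higher in NOD/Ltj and 0.361% lower. Among the 8 genes, 0 were called, 0 had an unadjusted p under 0.05 (the lowest was 0.115; of all genes, 8.00% had such a p and were higher and 5.05% were lower), and DESeq2 and limma-voom also called 0. Leaving out a single library gave 0 calls among the 8, except that 1 gene, Jchain, was called without ICR 2. An unadjusted p under 0.05 was reached by 2 of the 8 without ICR 1, by 2 without ICR 2, and by 1 in limma-voom. The NOD/Ltj and ICR libraries overlapped for each of the 8. Over all genes, 20.0% did not overlap (11.2% with NOD/Ltj above and 8.89% with NOD/Ltj below). A set of 8 genes is too small for these counts to set it apart from all genes. The median log2 fold change of the 8 was 0.27, with 5 above 0 and 3 below, beside -0.03 over all genes.

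**Figure D1:**
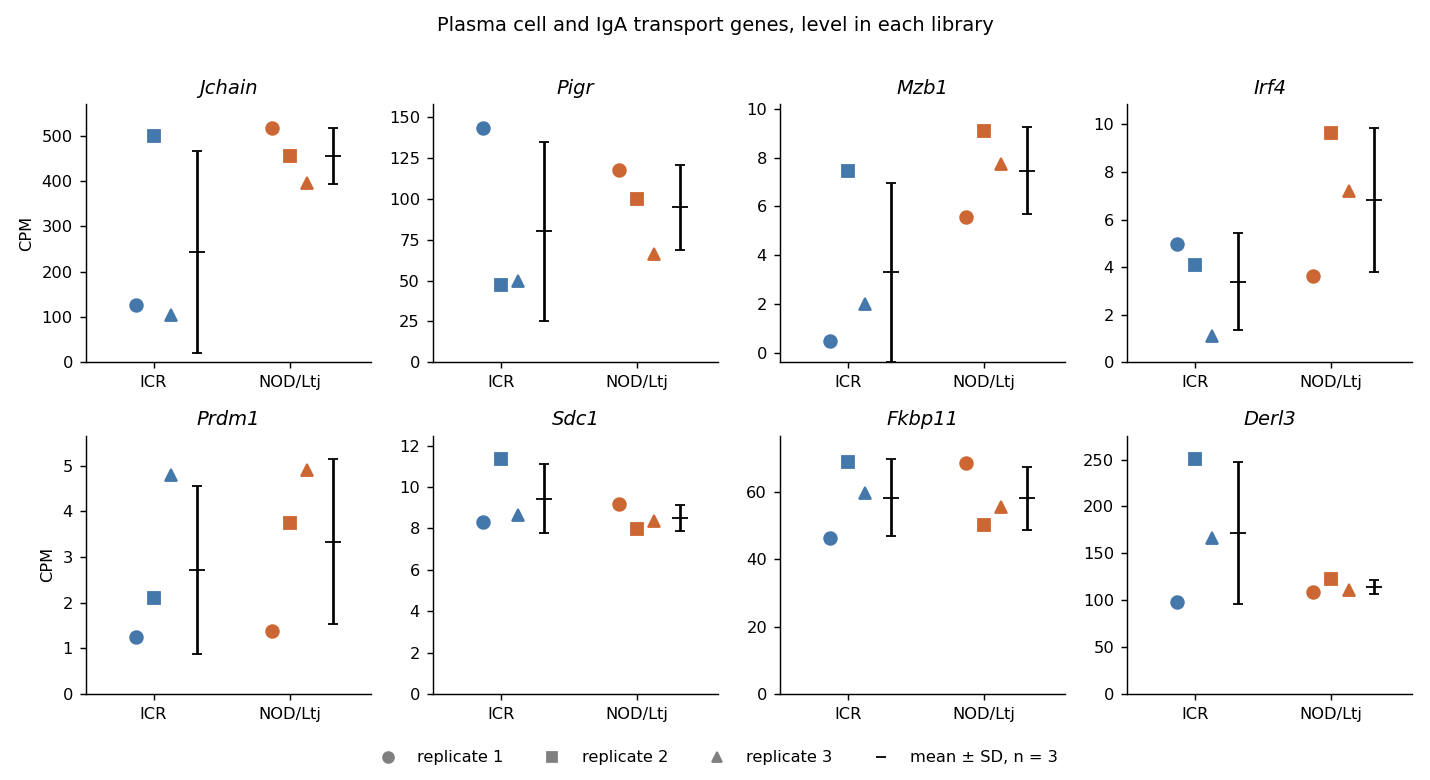
Level in CPM (vertical axis) of the 8 plasma cell and IgA transport genes in the 3 ICR and 3 NOD/Ltj libraries, 1 panel per gene; the marker shape gives the replicate number, and the bar beside each group gives the mean ± SD (n = 3). The ICR and NOD/Ltj libraries overlap in every panel, and for Jchain and Mzb1 the library ICR 2 stands with the NOD/Ltj libraries.

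Jchain was at 126, 500.0 and 104 CPM in ICR 1 to 3 and at 517, 455 and 395 CPM in NOD 1 to 3. Only ICR 2 reached the NOD/Ltj level; the other ICR libraries lay below all 3 NOD/Ltj libraries. The means were 243 ± 223 CPM in ICR and 456 ± 61.2 CPM in NOD/Ltj (SD, n = 3). The log2 fold change was 0.91 ± 0.59 (SE), with a 95% interval of -0.46 to 2.28 and an adjusted p of 0.600. A change of up to 4.85-fold higher lies within that interval, so the libraries do not show that the strains had the same level. Without ICR 2 the log2 fold change was 1.99 with an adjusted p of 0.0472, the only setting tried in which any of the 8 genes was called. The remaining settings that leave out a library gave adjusted p-values from 0.709 to 0.855.

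The IgA heavy chain gene Igha was at 192, 1136 and 379.9 CPM in ICR and at 1378, 949 and 910.4 CPM in NOD/Ltj, so ICR 2 again lay inside the NOD/Ltj range. Its log2 fold change was 0.92 ± 0.61, with an interval of -0.51 to 2.35 and an adjusted p of 0.609. On the log2 scale, the ratio of Jchain to Igha counts within a library was -0.61, -1.18 and -1.87 in ICR and -1.41, -1.06 and -1.20 in NOD/Ltj. The NOD/Ltj ratios all lay inside the ICR range. The group means differed by less than 0.01 (-1.22 ± 0.63 and -1.23 ± 0.18, SD, n = 3; two-sided exact permutation test over libraries, p = 1).

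Pigr, the epithelial receptor, was at 143, 47.1 and 50.0 CPM in ICR and at 118, 99.8 and 66.3 CPM in NOD/Ltj. The highest value of all was ICR 1, the library with high ductal and simple epithelial genes, and the other ICR libraries were the lowest, so the groups overlapped on both sides. Its log2 fold change was 0.24 ± 0.46, with an interval of -0.83 to 1.32 and an adjusted p of 0.899. Without ICR 1 it was 0.95 with an adjusted p of 0.120. Summed ductal and simple epithelial genes were at 889, 481 and 424 CPM in ICR and at 420, 505 and 408 CPM in NOD/Ltj, and their part in the Pigr values was not tested. The log2 ratio of Pigr to Jchain counts was 0.19, -3.41 and -1.06 in ICR and -2.14, -2.19 and -2.57 in NOD/Ltj. ICR 2 had the lowest ratio and the remaining ICR libraries the highest, and the difference of means of -0.87 was within the spread (exact permutation test, two-sided, p = 0.5; adjusted over the 4 ratios computed, 1).

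Factors that act on the Pigr gene were read from a list of 22 tested genes of interferon, interleukin and NF-κB signalling. Of these, 2 rose in NOD/Ltj, 0 fell and 20 were not called, with a median log2 fold change of 0.24. Il4ra, the interleukin-4 receptor chain, was at 7.50 to 9.60 CPM in ICR and at 15.9 to 27.6 CPM in NOD/Ltj, a log2 fold change of 1.35 ± 0.24 (adjusted p = 0.0339). It kept the call only when the library left out was NOD 1 (0.0205); without NOD 3 the adjusted p was 0.179, without any other single library it was 0.0566 to 0.142, and in limma-voom it was 0.0599. The NF-κB subunit genes Nfkb1, Rela and Relb were not called, with log2 fold changes of 0.20, 0.22 and 1.18. Relb was at 5.62, 2.31 and 2.22 CPM in ICR and at 4.04, 10.7 and 8.27 CPM in NOD/Ltj (adjusted p = 0.365). Pigr itself was highest in ICR 1 and Il4ra in NOD 2, and a link between these genes was not tested.

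No gene of the machinery that carries the loaded receptor across the cell was called. Of 18 such genes, which include the small GTPases Rab11a and Rab25, the motor Myo5b and the clathrin adaptor Ap1m2, 0 passed the test, and the median log2 fold change was -0.10. Rab25, an epithelial GTPase of apical recycling, was at 20.1, 29.8 and 28.4 CPM in ICR and at 19.1, 16.0 and 19.9 CPM in NOD/Ltj. The NOD/Ltj libraries lay just below the ICR libraries, with a log2 fold change of -0.51 ± 0.20 (adjusted p = 0.343). In 9 of the 18 genes the highest library was ICR 1, as for Pigr. Among 8 other receptors that bind IgA or IgM or resemble such receptors, 2 rose. These were Fcmr, the IgM receptor of B cells (0.129 to 0.280 CPM in ICR, near the limit of detection, and 3.74 to 16.4 CPM in NOD/Ltj), and Fcrla, an intracellular B cell protein (0.0578 to 0.612 and 6.74 to 22.2 CPM). Their adjusted p-values were 0.0108 and 0.0177, and 0.0680 and 0.0951 without NOD 3. Fcrla also lost its call without ICR 2 (0.0866) and without NOD 2 (0.0848), and limma-voom called neither (0.150 for Fcmr and 0.0963 for Fcrla).

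Irf4 was at 4.98, 4.09 and 1.12 CPM in ICR and at 3.65, 9.65 and 7.20 CPM in NOD/Ltj. NOD 2 and NOD 3 lay above every ICR library, and NOD 1 lay below ICR 1 and ICR 2. In log2 terms the change was 1.01 ± 0.57, with an interval of -0.33 to 2.34 and an adjusted p of 0.536. Prdm1, which encodes Blimp-1, was at 1.26, 2.10 and 4.79 CPM in ICR and at 1.37, 3.74 and 4.91 CPM in NOD/Ltj. Each strain had a library near the lowest and a library near the highest value, and the log2 fold change was 0.30 ± 0.61 (interval -1.12 to 1.72, adjusted p = 0.904). Irf4 is also made by activated B and T cells, and Prdm1 by some T cells and epithelia.

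Blimp-1 is known to repress the transcription programme of B cells, and 11 genes of that programme were read beside Prdm1. Of these, 4 rose in NOD/Ltj and 0 fell, with a median log2 fold change of 1.37. In 7 of 11 genes all NOD/Ltj libraries lay above all ICR libraries (11.2% of all genes). By the fitted value 8 genes were above 0 and 3 below. Those below were Bcl6, Ebf1 and Id3 (-0.44, -0.31 and -0.28), which overlapped between the groups and were not called. Pax5, the factor that keeps B cell identity, was at 0.217, 0.339 and 0.245 CPM in ICR and at 8.46, 34.8 and 23.2 CPM in NOD/Ltj. The groups were far apart, with a log2 fold change of 6.37 ± 0.60 (adjusted p = 0.00647; 0.0542 without NOD 3). Spib, a factor of B cell receptor signalling, also rose, by a log2 fold change of 4.86 ± 0.60 (adjusted p = 0.0116; 0.0715 without NOD 3). Spib was also not called without ICR 2 (0.0566) or NOD 2 (0.0542), and limma-voom called neither Pax5 (0.103) nor Spib (0.0682). Ets1, named after its values were seen, was called too (adjusted p = 0.0240) and kept its call only when NOD 1 was the library left out. Prdm1 was called in no setting tried, and its log2 fold change ran from -0.0799 to 0.993 when 1 library was left out.

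Mzb1, the chaperone of marginal zone B cells and plasma cells that helps to assemble IgM and IgA, was at 0.491, 7.45 and 1.99 CPM in ICR and at 5.56, 9.09 and 7.74 CPM in NOD/Ltj. ICR 2 again lay inside the NOD/Ltj range, and the other ICR libraries lay below it. The ICR libraries spread over 15.2-fold, from 34 counts in ICR 1 to 461 in ICR 2, and the NOD/Ltj libraries over 1.64-fold. The fitted log2 fold change was 1.17 ± 0.81, with an interval of -0.71 to 3.06 and an adjusted p of 0.626, and without ICR 2 it was 2.59 (adjusted p = 0.160). A neighbouring gene overlaps Mzb1 on the same strand in GENCODE release M21, and it held 96 counts in ICR 1, 2 in ICR 2 and 0 in the others. No source used here says how the authors split reads between the 2 genes, so the ICR 1 value is uncertain. With both genes added together ICR 1 was at 1.88 CPM, the ICR libraries spread over 3.98-fold, and the log2 fold change was 0.98 (adjusted p = 0.533).

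Of 10 B cell marker genes 9 rose, 0 fell, and all 10 had every NOD/Ltj library above every ICR library. The count of calls was 0 without NOD 3, 5 without ICR 3, 6 without ICR 2 or NOD 2, and 3 in limma-voom. Calls over all genes also fell in these settings, from 416 to 13, 149, 142 (without ICR 2), 73 (without NOD 2) and 143. The 10 markers summed to 3.80, 6.77 and 7.32 CPM in ICR 1 to 3 and to 128, 547 and 366 CPM in NOD 1 to 3. Their median log2 fold change was 6.06. ICR 2, which stood with NOD/Ltj for Jchain, Mzb1 and Igha, was at the ICR level for these markers. Within NOD/Ltj the marker sum was highest in NOD 2 and lowest in NOD 1, the order also seen for Irf4 and Mzb1, while Jchain, Pigr and Igha were highest in NOD 1 and lowest in NOD 3. The log2 ratio of Mzb1 to Cd79a, a component of the B cell receptor complex, was -0.20, 2.00 and 1.07 in ICR and -1.62, -2.92 and -2.26 in NOD/Ltj. The groups did not overlap, and the ratio was 9.34-fold lower in NOD/Ltj (difference of means -3.22 on the log2 scale). Cd79a itself was at 0.563, 1.86 and 0.944 CPM in ICR and at 17.1, 68.8 and 37.1 CPM in NOD/Ltj. Its log2 fold change was 5.19, against 1.17 for Mzb1, so the lower ratio does not mean that Mzb1 fell. The exact permutation test over libraries gave a two-sided p of 0.1, the smallest that 3 against 3 allows, and 0.4 after adjustment over the 4 ratios, so the design cannot pass a threshold of 0.05. With the counts of the overlapping gene added to Mzb1, the ICR 1 ratio was 1.72 and the ratio was 14.6-fold lower in NOD/Ltj, with the same p by that exact test. T cell markers moved in the same direction, with 7 of 10 called higher (3 without NOD 2, 4 without ICR 2 or ICR 3, 0 without NOD 3 and 0 in limma-voom) and sums of 2.60 to 4.72 CPM in ICR and 39.1 to 120 CPM in NOD/Ltj. The part of B and T cells in the members' values was not tested.

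**Figure D2:**
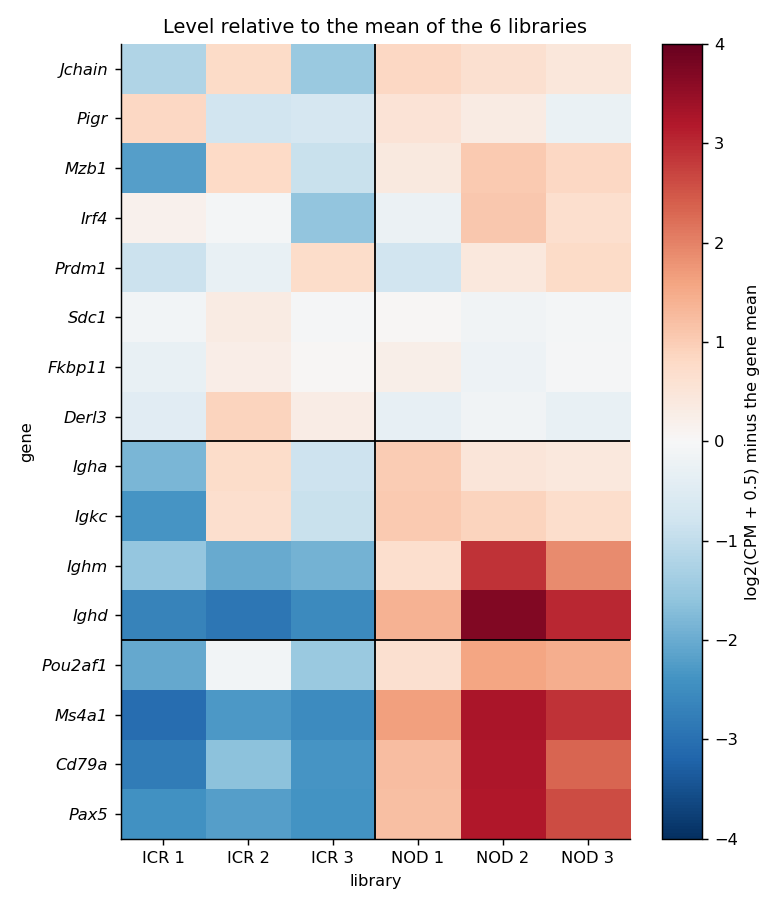
Level of each gene (rows) in each library (columns) as log2(CPM + 0.5) minus that gene's mean over the 6 libraries, with red above and blue below the mean; lines divide the 8 plasma cell and IgA transport genes, 4 immunoglobulin constant genes, and B cell genes. ICR 2 is red with the NOD/Ltj libraries for Jchain, Mzb1, Igha and Igkc and blue for Ighm, Ighd, Ms4a1, Cd79a and Pax5.

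Sdc1 was at 8.32, 11.3 and 8.67 CPM in ICR and at 9.20, 7.98 and 8.36 CPM in NOD/Ltj. All 6 libraries lay close together, with the highest in ICR 2 and the lowest in NOD 2. The log2 fold change was -0.15 ± 0.20, and its interval of -0.61 to 0.31 holds changes of at most 1.24-fold upward and, as a NOD/Ltj to ICR ratio, 0.655 downward. The adjusted p was 0.837. Among 16 relatives of the members (other syndecans, derlins, FK506-binding proteins of the ER, and IRF and PRDM factors) 0 were called, with a median log2 fold change of 0.04. Sdc2, a syndecan of stromal cells, was at 25.0, 11.5 and 10.0 CPM in ICR and at 8.28, 5.46 and 6.68 CPM in NOD/Ltj. Its NOD/Ltj libraries lay below all ICR libraries, and its log2 fold change was -1.19 ± 0.37 (adjusted p = 0.214; 0.0458 in DESeq2). Irf8, the IRF factor of B cells and myeloid cells, was at 8.49 to 16.8 CPM in ICR and at 25.0 to 40.3 CPM in NOD/Ltj (log2 fold change 1.37 ± 0.29, adjusted p = 0.0682; 0.00146 in DESeq2).

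Fkbp11, a prolyl isomerase of the ER in secretory cells, was at 46.3, 69.0 and 59.7 CPM in ICR and at 68.6, 50.2 and 55.7 CPM in NOD/Ltj. The strains covered nearly the same range, with means of 58.4 ± 11.4 and 58.2 ± 9.47 CPM (SD, n = 3). The log2 fold change was -0.01 ± 0.22 (interval -0.51 to 0.50, adjusted p = 0.995). The log2 ratio of Fkbp11 to Hspa5, the general chaperone BiP of the ER, was -3.15, -3.29 and -2.90 in ICR and -3.20, -3.25 and -3.04 in NOD/Ltj. It was the ratio with the narrowest spread of the 4, and the means differed by -0.05 (exact permutation test, two-sided, p = 0.8; adjusted over the 4 ratios, 1).

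Derl3, a derlin that removes misfolded proteins from the ER and is made in secretory cells, was at 98.6, 250.2 and 167 CPM in ICR and at 109, 123 and 111 CPM in NOD/Ltj. The NOD/Ltj libraries lay together near the bottom of the ICR range, above ICR 1 only. The log2 fold change was -0.59 ± 0.33 (interval -1.37 to 0.18, adjusted p = 0.530), and it was -0.22 without ICR 2 (adjusted p = 0.851) and -0.89 without ICR 1 (0.106). General genes of ER folding and degradation gave 0 calls of 22 and a median log2 fold change of -0.03. In 16 of those 22 genes ICR 2 was the highest of the 6 libraries, as it was for Sdc1, Fkbp11 and Derl3. The 22 genes summed to 5597 CPM in ICR 2 and to 3334 to 4991 CPM in the other libraries, and the part of this library in the Derl3 difference was not tested beyond leaving it out.

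**Figure D3:**
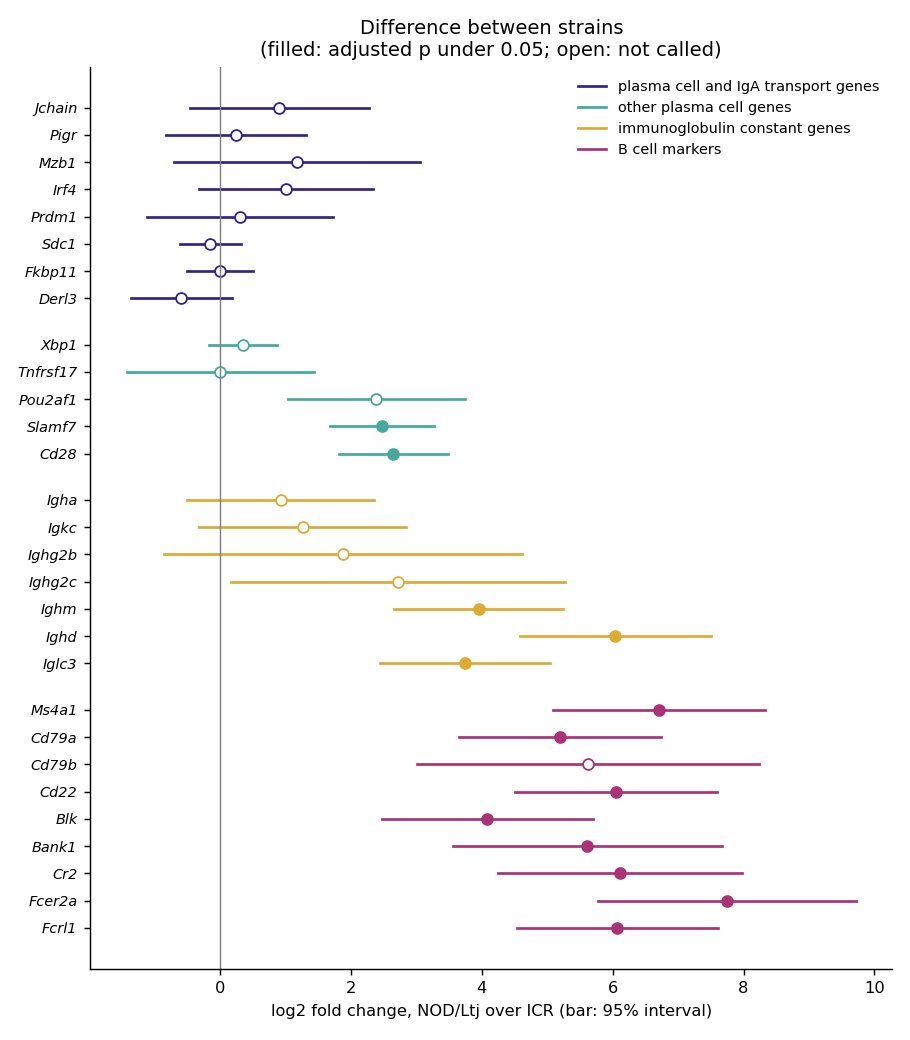
Log2 fold change of NOD/Ltj over ICR (horizontal axis) with its 95% interval for the 8 plasma cell and IgA transport genes, 5 other plasma cell genes, 7 immunoglobulin constant genes and 9 B cell markers; filled points were called at an adjusted p under 0.05 in edgeR. The intervals of all 8 genes in the top block cross 0, while 8 of the 9 B cell markers drawn are filled.

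Other genes known from plasma cells were read from a list of their own. Of 19 tested, 2 rose, 0 fell and 17 were not called, with a median log2 fold change of -0.00. In 4 of the 19 all NOD/Ltj libraries lay above all ICR libraries, and in 10 of the 19 ICR 2 was the highest library. Xbp1, the factor that expands the ER for secretion, was at 272, 305 and 355 CPM in ICR and at 427, 357 and 402 CPM in NOD/Ltj. The NOD/Ltj libraries lay just above the ICR libraries, and the log2 fold change of 0.35 ± 0.22 was not called (adjusted p = 0.599). Tnfrsf17, the plasma cell survival receptor BCMA, was low, at 0.472 to 1.95 CPM in ICR and 0.673 to 1.65 CPM in NOD/Ltj. Pou2af1, a coactivator of immunoglobulin genes in B and plasma cells, was at 1.52, 7.17 and 2.43 CPM in ICR and at 12.3, 23.9 and 22.0 CPM in NOD/Ltj. Its groups did not overlap, and its log2 fold change of 2.39 ± 0.58 was not called (adjusted p = 0.103; 0.0355 without ICR 2, and 0.000224 in DESeq2).

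The 2 called genes of this list are also made by other lymphocytes. Slamf7, a surface receptor of plasma cells and of natural killer and other lymphocytes, was at 1.08, 0.678 and 0.874 CPM in ICR and at 3.76, 6.24 and 4.64 CPM in NOD/Ltj. Cd28, the costimulatory receptor of T cells that long-lived plasma cells also carry, was at 0.636, 0.889 and 0.926 CPM in ICR and at 3.39, 6.38 and 5.60 CPM in NOD/Ltj. For both, all NOD/Ltj libraries lay above all ICR libraries, with log2 fold changes of 2.47 ± 0.34 and 2.65 ± 0.36 (adjusted p = 0.0160 and 0.0159). Neither was called when ICR 2, ICR 3, NOD 2 or NOD 3 was left out (adjusted p from 0.0562 to 0.0963). The 7 called T cell markers given above were higher in the same libraries, and their part was not tested.

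Among the immunoglobulin constant genes, the heavy chains of IgM and IgD and a lambda light chain passed the test, while those of IgA and IgG did not in the fit over all 6 libraries. Of 12 tested, 3 rose, 0 fell, and 8 had every NOD/Ltj library above every ICR library, with a median log2 fold change of 2.45. Ighm, the IgM heavy chain, was at 14.6, 10.4 and 11.3 CPM in ICR and at 70.5, 325 and 165 CPM in NOD/Ltj (log2 fold change 3.95 ± 0.55, adjusted p = 0.0160). Ighd, the IgD heavy chain of naive B cells, was at 1.76, 1.44 and 1.98 CPM in ICR and at 37.5, 187 and 116 CPM in NOD/Ltj (6.04 ± 0.62, adjusted p = 0.0102). The third was the light chain Iglc3, at 0.953 to 2.60 CPM and 10.2 to 35.8 CPM (3.74 ± 0.56, adjusted p = 0.0189). All 3 had ICR 2 at the ICR level and NOD 2 highest, as the B cell markers did. None was called without NOD 3 (adjusted p from 0.0658 to 0.0982), Ighm and Iglc3 were not called without ICR 3 (0.0816 and 0.0942), Ighm not without ICR 2 (0.0843) and Iglc3 not without NOD 2 (0.0751).

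Igkc, the kappa light chain, was at 198, 1619 and 548 CPM in ICR and at 2099.8, 1896 and 1664 CPM in NOD/Ltj. ICR 2 lay just under the NOD/Ltj libraries, and the log2 fold change of 1.26 ± 0.68 was not called (adjusted p = 0.513). The switched IgG chain Ighg2b was at 1.07, 58.3 and 7.04 CPM in ICR and at 40.6, 121 and 83.5 CPM in NOD/Ltj, with ICR 2 inside the NOD/Ltj range (1.88 ± 1.17, adjusted p = 0.580). Ighg2c was at 1.01, 30.0 and 4.23 CPM in ICR and at 34.0, 107 and 90.2 CPM in NOD/Ltj, with ICR 2 just below that range (2.72 ± 1.09, adjusted p = 0.352). In 10 of the 12 genes ICR 2 was the highest ICR library, and Ighm and Ighd were the exceptions. The remaining uncalled genes, Ighe, Ighg1, Ighg3, Iglc1 and Iglc2, had log2 fold changes of 0.96 (Iglc1) to 2.75 (Iglc2). Without ICR 2, Ighg1 and Iglc1 were called, at 4.43 and 3.39 (adjusted p = 0.0350 and 0.0240). DESeq2 called Ighg3 and Iglc2 (adjusted p = 0.0112 and 0.0475), and Iglc3 was not called in limma-voom (0.0599). The lambda genes resemble each other to differing degrees, as do the IgG genes. The counting could have divided reads between like genes, so values of single genes are uncertain.

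Signals for switching to IgA and for the homing of IgA plasma cells were read from separate lists. Of 15 switching genes 2 rose and 0 fell, with a median log2 fold change of 0.65. These were Tnfrsf13c, the BAFF receptor of B cells (0.105 to 0.462 CPM in ICR and 2.17 to 9.64 CPM in NOD/Ltj, adjusted p = 0.0327), and Cd40 (0.315 to 0.598 and 2.15 to 10.9 CPM, adjusted p = 0.0251). Both kept the call only when the library left out was NOD 1. Leaving out any other library gave adjusted p-values from 0.0510 to 0.143. In limma-voom the adjusted p was 0.187 for Tnfrsf13c and 0.156 for Cd40. Tgfb1, the cytokine that directs switching to IgA, was at 2.21 to 4.93 CPM in ICR and at 5.26 to 8.05 CPM in NOD/Ltj and was not called (log2 fold change 0.65).

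Of 14 homing genes 3 rose and 0 fell, with a median log2 fold change of 1.15. The integrin genes Itga4 and Itgb7, whose products pair on lymphocytes bound for mucosa, were at 1.68 to 2.71 and 1.29 to 2.46 CPM in ICR and at 9.56 to 27.5 and 8.09 to 30.5 CPM in NOD/Ltj (adjusted p = 0.0137 and 0.0216). The chemokine receptor gene Cxcr4 was at 1.91 to 3.51 and 8.13 to 25.0 CPM (adjusted p = 0.0343). All 3 lost the call without ICR 2, NOD 2 or NOD 3 (adjusted p from 0.0594 to 0.147) and in limma-voom (0.0503 to 0.0896). Without ICR 3, Itgb7 and Cxcr4 also lost it (0.0813 and 0.114), and without ICR 1, Cxcr4 (0.0530). The B and T cell markers given above were higher in the same libraries, and their part in these 3 genes was not tested. Ccl28, the epithelial chemokine that draws IgA plasma cells into glands, was at 75.6, 104 and 28.8 CPM in ICR and at 159, 64.0 and 57.9 CPM in NOD/Ltj. The groups overlapped (log2 fold change 0.43 ± 0.54, adjusted p = 0.828). Its receptor gene Ccr10 was near the detection limit, at 0.178 to 0.489 CPM in ICR and 0 to 1.00 CPM in NOD/Ltj.

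Levels of different genes were compared per kilobase of exon. On that scale (CPM per kb, median of the 6 libraries) Jchain was highest at 305, followed by Derl3 at 88.3, Fkbp11 at 78.6, Pigr at 21.6, Mzb1 at 7.19, Sdc1 at 2.70, Irf4 at 0.952 and Prdm1 at 0.544. Jchain ranged from 74.5 to 371 CPM per kb and overlapped Derl3 (74.6 to 189), which overlapped Fkbp11 (63.1 to 94.0). Pigr (12.2 to 37.2) overlapped neither Fkbp11 above it nor Mzb1 (0.543 to 10.1) below it. Mzb1 overlapped Sdc1 (2.53 to 3.59), Sdc1 lay above Irf4 (0.235 to 2.03) in every library, and Irf4 overlapped Prdm1 (0.234 to 0.914). The gene Igha had a median of 366 CPM per kb and Cd79a one of 6.49.

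The spread within a strain also differed among the 8 genes. In ICR the highest library exceeded the lowest by 15.2-fold for Mzb1 (3.98-fold with the overlapping gene added), 4.82-fold for Jchain, 4.45-fold for Irf4, 3.81-fold for Prdm1, 3.04-fold for Pigr and 2.54-fold for Derl3. For Fkbp11 and Sdc1 it did so by 1.49-fold and 1.36-fold. In NOD/Ltj the same measure was at most 3.58-fold (Prdm1), with 2.65-fold for Irf4 and 1.78-fold or less for the other 6 genes. It was wider in ICR than in NOD/Ltj for each of the 8, a description over 3 libraries a strain that was not tested.

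**Figure D4:**
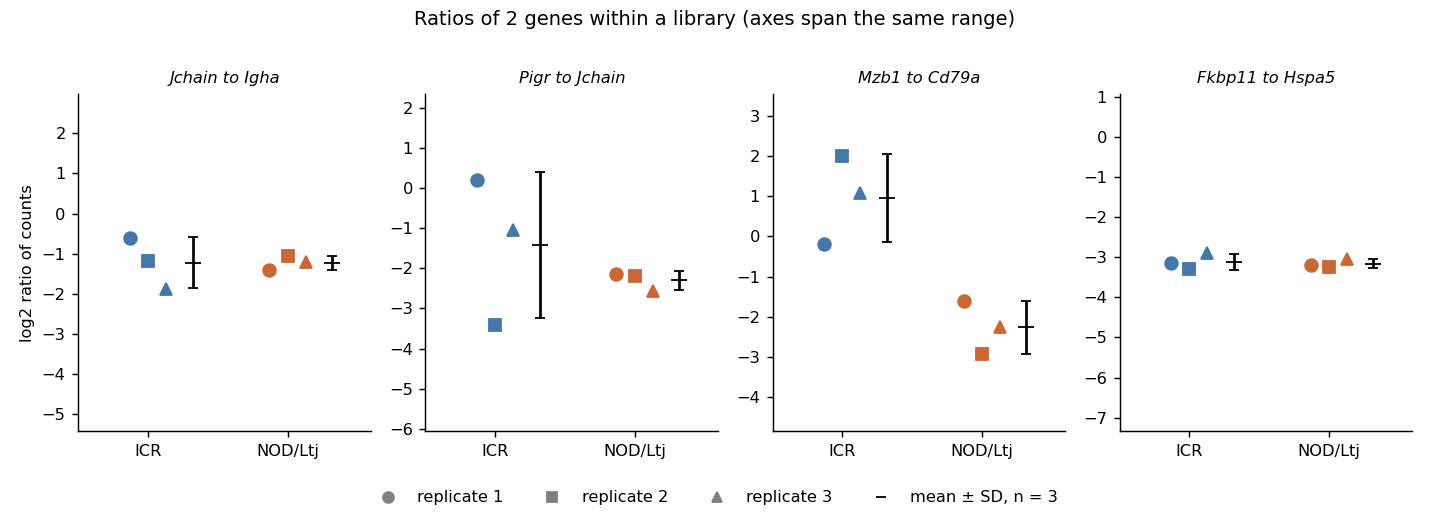
Log2 ratio of the counts of 2 genes within a library (vertical axes, all of the same span) for the 3 ICR and 3 NOD/Ltj libraries, with the mean ± SD (n = 3) beside each group. The Mzb1 to Cd79a ratio is the panel in which the groups do not overlap (-0.20 to 2.00 in ICR and -2.92 to -1.62 in NOD/Ltj).

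The genes whose level followed those of Jchain, Mzb1 and Pigr most closely were sought among 9284 genes with a mean of at least 5 CPM, by Pearson's r of log2(CPM + 0.5) over the 6 libraries. For Jchain these were the lambda light chain gene Iglc1 (r = 0.998), Mpp5 (0.997) and Gm13835 (0.996). For Mzb1 they were the IgG gene Ighg2b (0.997), 1110065P20Rik (0.996) and Mto1 (0.987). For Pigr they were Kif3b, Fbxo45 and Cr1l (0.997, 0.993 and 0.990). Iglc1 moved over a wide range, with 36.9 CPM in ICR 2 against 3.34 and 1.87 CPM in the other ICR libraries, whereas Mpp5 moved only between 15.1 and 19.0 CPM. These values describe 6 libraries in 2 groups, chosen as the highest of 9284, and no test was made of them.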

How the data were processed

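The authors deposited estimated counts per gene, already whole numbers, so nothing was rounded; the planned test for plain counts was kept. Of tools, fastp, StringTie and edgeR are named in the submitters' processing notes. The aligner, genome build, strand setting and counting of overlapping genes were not stated in the sources used here. Low values piled up at 4 (in ICR 1, 368, 808 and 223 genes had 3, 4 and 5 counts) and, more weakly, at its multiples (30.4 to 31.7% of values from 1 to 40, where 25% are multiples). A fragment was taken to add about 4 counts, an estimate from the values that no label states, and the limit of 3 fragments, 12 counts, is approximate for that reason. Per the labels' protocols, polyadenylated RNA was sequenced as strand-marked paired reads.

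Symbols came from GENCODE M21 (55141 of 55401 identifiers matched). edgeR 4.0.16 (R 4.3.3) tested NOD/Ltj against ICR by its quasi-likelihood test, two-sided, with TMM scaling and filterByExpr, and Benjamini-Hochberg adjustment over 18537 genes; the standard error and 95% interval come from its F statistic. The test was tried on simulated data with known changes. Ratios used counts plus 0.5. DESeq2 1.42.0, limma 3.58.1 (voom), other scalings and filters, a replicate block and leaving out each library were alternatives. No 2 libraries were copies of each other (chi-square per degree of freedom 118 to 1158). Genes named are the members, the immunoglobulin constant genes, 6 further genes, and from each list the called genes (at most 3, by adjusted p) and the largest uncalled changes. A few others are named for what they encode, chosen with their values in view. The members and lists were chosen with earlier results of these data known. Some genes of these lists are not reported here.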

Additional observations from a re-analysis of the deposited data

How the results depend on the processing

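The calls rest on 3 libraries a strain, and single libraries decide many of them. Over all genes, 349 were called higher and 67 lower; DESeq2 called 940 and 279, limma-voom 123 and 20, and the fit with the replicate number as a block 129 and 25. Leaving out 1 library gave 11 to 406 higher and 2 to 118 lower, the fewest without NOD 3. For the 8 plasma cell and IgA transport genes the count of higher calls was 0 to 1 over libraries left out (Jchain, without ICR 2). The replicate block called 0 of the 8 (1 had an unadjusted p under 0.05). Deviations of same-numbered libraries from their group means correlated at -0.12, -0.15 and 0.07, and those of differently numbered libraries at -0.0678 to 0.167. These values gave no sign of pairing, but with 3 libraries a strain they cannot exclude it. Some uncalled fold changes turned sign, near 0 and far from it. With all libraries Myh4 was at -3.79, Tnnt3 at -4.06, Krt19 at -1.52, Egfr at -1.03 and Fcgrt at -0.86. Among single libraries left out, Tnnt3 and Myh4 turned sign only without ICR 3, and Krt19, Egfr and Fcgrt only without ICR 1. The cause was not tested. Fkbp11 was at 0.00365 in limma-voom and at 0.000357 with the block, Tnfrsf17 at 0.0792 and 0.183, Ccr10 at -1.57 and -0.67, and Myh4 at 1.66 and 0.70. With 1 library left out, log2 fold changes ran from -0.0292 to 0.946 for Pigr, -0.252 to 0.00321 for Sdc1, -0.0799 to 0.993 for Prdm1, -0.17 to 0.13 for Fkbp11, -0.44 to 0.76 for Tnfrsf17, -0.19 to 0.84 for Ccl28, -1.06 to 1.08 for Ccr10, -1.40 to 0.21 for Egfr, -1.26 to 0.40 for Fcgrt, -1.96 to 0.0695 for Krt19, -4.82 to 3.07 for Tnnt3 and -5.38 to 7.59 for Myh4. The differences of the Jchain to Igha and Fkbp11 to Hspa5 log2 ratios ran from -0.33 to 0.30 and from -0.13 to 0.0606. Adding the overlapping gene to Mzb1, chosen after seeing the data, moved its log2 fold change to 0.98 and the difference of its log2 ratio to Cd79a from -3.22 to -3.87. Depth limits Ccr10, Tnfrsf17 and the B cell genes in ICR, which were low or near the detection limit.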
